A study of Homo sapiens with 28 samples.

Results

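The 46 genes described here run DNA replication and mitosis in dividing cells, and were picked by name from the 62703 gene rows of each RNA count table through their GENCODE identifiers. They fall into 6 roles: 11 genes of origin licensing and the replication fork, 8 of S phase control and nucleotide or chromatin supply, 8 mitotic cyclins and kinases, 7 of the spindle checkpoint and the anaphase-promoting complex, 10 of the kinetochore and spindle, and 2 proliferation markers. In all, 45 of the 46 had enough reads to be tested in both cell lines. NUSAP1, a microtubule-bundling spindle protein, had between 1 and 19 counts in the 24 libraries, and 86.8% of its exon bases overlap another annotated gene, so that reads there could not be assigned to it. It is not tested below.

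RNA-seq was run on polyA-selected RNA from a pair of human metastatic colorectal cancer lines, MDST8 of the mesenchymal consensus molecular subtype CMS4 and LoVo of a non-CMS4 subtype, to find genes that depend on TWIST1, a basic helix-loop-helix transcription factor of the epithelial to mesenchymal transition. There were 8 groups of 3 libraries. The MDST8 groups were wild-type (WT) cells and 5 single-cell-derived TWIST1 knockout clones made with Cas9 and 3 guide RNAs: clone 1.1 from the first guide, clone 2.2 from the second, and clones 3.2, 3.5 and 3.6 from the third. The labels do not call the WT cells a clone, and all 5 clones are compared with the same 3 WT libraries. The LoVo groups were cells labelled as control and cells labelled as TWIST1 shRNA. The sample titles read control and TWIST1 knockdown, and a figure legend of the study sets the knockdown against wild-type LoVo cells. Whether the control cells carried an shRNA cannot be told from these. ChIP-seq for TWIST1 was done once in unmodified cells of each line.

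Total counts were 17252883 to 22217009 per MDST8 library and 16567606 to 20889529 per LoVo library, and the lowest count of any of the 45 genes in any library was 46 (CCNE2). TWIST1 RNA was 46 ± 6.05 CPM (counts scaled to library size, per 1e6 reads; SD, n = 3) in WT and 29.3 to 53.5 CPM on average in the clones. A gene count does not show whether the edited message still encodes the protein. In LoVo the TWIST1 counts ran against the labels: the 3 libraries labelled control held 0, 0 and 0 reads, and the others held 73, 89 and 93. LoVo directions below are therefore given as labelled. MDST8 WT expressed 6 of 6 mesenchymal markers above 1 CPM and 2 of 10 colon epithelium markers (KRT8 and KRT18), with CDX1, CDX2, CDH1 and LGALS4 at 0, whereas both LoVo groups expressed all 10.

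As background, replication origins are licensed in G1 when CDC6 and CDT1 load the MCM2 to MCM7 helicase, and E2F transcription factors switch on these genes together with those for nucleotide synthesis as cells enter S phase. A later wave of genes, for cyclins, kinases, checkpoint and kinetochore proteins, is transcribed towards G2 and mitosis under B-MYB, FOXM1 and the NF-Y factor, often through a CCAAT box and a cell cycle homology region (CHR) near the start site. Since nearly all these genes peak while cells divide, a lower level in bulk RNA may reflect fewer dividing cells or less RNA in each cell, and these cannot be told apart here.

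RefSeq promoter windows (GRCh38.p14, from 250 bases before to 50 after the gene start) were found for 37 of the 46 genes. The entries for MCM4, MCM5, CCNE2, AURKA, FOXM1, TTK, UBE2C, TPX2 and BIRC5 were missing. Stretches of the 200 bases before the RefSeq start are shown for 7 genes that the results below turn on. The first 3 belong to genes lower in all 5 clones.
E2F1: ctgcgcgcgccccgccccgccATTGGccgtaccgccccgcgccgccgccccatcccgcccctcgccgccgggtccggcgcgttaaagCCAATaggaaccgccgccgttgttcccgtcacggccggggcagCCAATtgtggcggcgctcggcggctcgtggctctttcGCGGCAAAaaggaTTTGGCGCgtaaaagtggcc
E2F2: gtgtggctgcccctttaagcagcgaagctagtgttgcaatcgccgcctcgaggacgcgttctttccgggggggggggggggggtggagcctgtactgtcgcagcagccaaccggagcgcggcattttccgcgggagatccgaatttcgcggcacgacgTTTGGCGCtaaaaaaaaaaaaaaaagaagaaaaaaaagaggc
GINS2: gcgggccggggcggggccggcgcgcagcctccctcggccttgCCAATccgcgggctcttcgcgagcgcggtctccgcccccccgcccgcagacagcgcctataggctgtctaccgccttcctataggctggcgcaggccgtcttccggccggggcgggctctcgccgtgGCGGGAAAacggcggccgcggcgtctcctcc
These lie on the minus strand at chr20:33686386-33686585, chr1:23531234-23531433 and chr16:85688955-85689154. The GINS2 stretch lies inside the gene as counted (chr16:85676198-85690073), downstream of the 5' end used for the peaks below. The next is the promoter with the strongest TWIST1 peak of the set in MDST8, on the minus strand at chr2:135876444-135876643.
MCM6: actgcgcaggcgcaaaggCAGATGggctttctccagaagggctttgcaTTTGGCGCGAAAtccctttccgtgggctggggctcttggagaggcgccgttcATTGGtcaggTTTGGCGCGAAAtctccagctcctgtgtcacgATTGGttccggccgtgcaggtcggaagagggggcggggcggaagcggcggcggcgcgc
The last 3 are mitotic promoters of genes with unlike responses, at chr1:43358781-43358980 on the plus strand and at chr10:128126424-128126623 and chr17:40417897-40418096 on the minus strand.
CDC20: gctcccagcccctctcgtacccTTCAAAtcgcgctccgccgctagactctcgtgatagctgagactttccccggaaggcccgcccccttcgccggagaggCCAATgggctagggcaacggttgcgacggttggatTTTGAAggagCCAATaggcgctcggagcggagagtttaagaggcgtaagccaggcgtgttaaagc
MKI67: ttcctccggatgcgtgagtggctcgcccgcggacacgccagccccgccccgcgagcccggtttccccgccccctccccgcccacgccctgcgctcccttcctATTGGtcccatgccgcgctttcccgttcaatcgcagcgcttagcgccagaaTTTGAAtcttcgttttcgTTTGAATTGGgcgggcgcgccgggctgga
TOP2A: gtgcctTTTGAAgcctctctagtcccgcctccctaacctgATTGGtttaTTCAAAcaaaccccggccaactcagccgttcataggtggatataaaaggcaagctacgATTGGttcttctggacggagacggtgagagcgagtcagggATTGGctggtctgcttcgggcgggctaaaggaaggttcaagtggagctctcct
Capitals mark 4 kinds of motif, searched on both strands: CCAAT, the CHR words TTTGAA and TTCGAA, the E2F words TTTGGCGC, TTTCGCGC, TTTCCCGC and TTTGCCGC, and the E-box CATCTG, which the study names for TWIST1. Some words overlap, such as the pairs of E2F words on opposite strands in MCM6 and the CHR and CCAAT words nearest the MKI67 start.

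CCAAT was present in 28 of the 37 windows (75.7%), against 34.6% of all 35116 promoters in the table and 34.7% of the 22199 of protein-coding genes. A CHR word was found in 16 (43.2%), against 16.4% and 13.7%. An E2F word was found in 12 (32.4%), against 3.31% and 4.1%. The E-box CATCTG was found in 4 (10.8%), MCM6, AURKB, PTTG1 and CENPE, against 14.7% and 12.2%. The E-box that the study describes at its target SPON2 lies farther upstream than these windows reach. A site placed like that one was not searched for. The G-rich word GGCGG, part of the cell cycle-dependent element, was found in all 37, against 59% and 71.6%, and is not marked above. By role, E2F words stood in 6 of 9 licensing and fork windows and 3 of 7 S phase control windows but in 0 of 5 checkpoint windows, and CHR words in 1, 1 and 4 of the same windows. These shares describe letters in a window and carry no test.

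**Figure D1:**
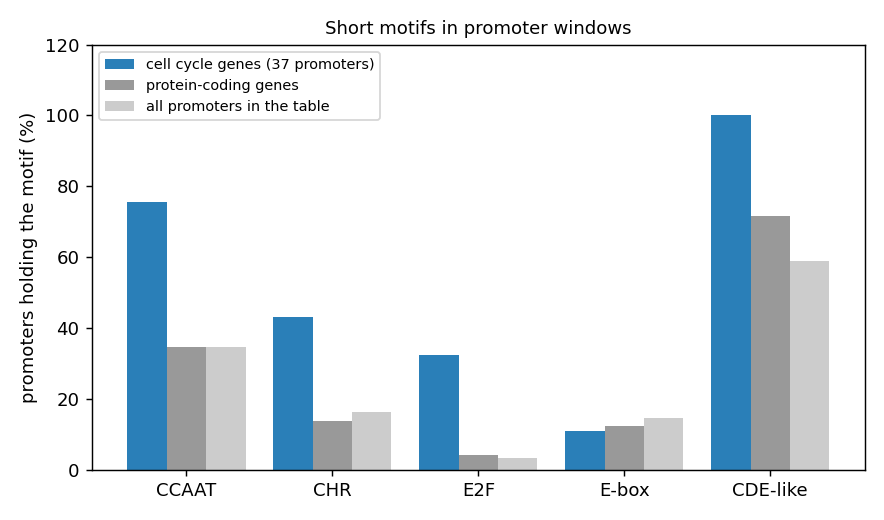
Share of promoter windows (y axis, percent) that hold each short motif (x axis), for the 37 cell cycle genes with a window, for protein-coding genes and for all promoters in the table. The bars of the cell cycle genes stand at 75.7% for CCAAT, 43.2% for CHR and 32.4% for E2F, at 10.8% for the E-box and at 100% for the element-like word GGCGG (CDE-like).

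Across the MDST8 clones the set was lower than in WT. A gene was called when its adjusted p was below 0.05 and its log2 difference beyond 0.58 in either direction (edgeR quasi-likelihood test, Benjamini-Hochberg over all 13706 genes tested). Of the 45 genes, 24 were called lower in clone 1.1, 15 in clone 2.2, 11 in clone 3.2, 29 in clone 3.5 and 27 in clone 3.6. The share called lower among all genes tested was 7.49% in clone 1.1, 6.64% in clone 2.2, 6.09% in clone 3.2, 7.25% in clone 3.5 and 11.7% in clone 3.6. No member was called higher in any clone, against 12% of all genes in clone 1.1, 8.05% in clone 2.2, 10.9% in clone 3.2, 11.2% in clone 3.5 and 15.3% in clone 3.6. The median log2 difference of the 45 was -0.60, -0.46, -0.44, -0.67 and -0.70 in the same order, where the median over all genes lay between -0.01 and 0.00.

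Most of the 45 genes were separated from WT by library, whether or not they passed the fold threshold. All 3 libraries of the clone lay below all 3 of WT for 43 genes in clone 1.1, 44 in clone 2.2, 40 in clone 3.2, 43 in clone 3.5 and 45 in clone 3.6. Among all genes tested that held for 33.9%, 31.6%, 33.6%, 32.7% and 35.3%. The mean was below WT in all 5 clones for 41 of 45, against 28.2% of all genes tested. BUB1B, CENPF, CCNE1 and MKI67 made up the rest. Summed over the set, the 45 genes took 0.76% ± 0.0116 of the counts in WT, 0.524% ± 0.0104 in clone 1.1, 0.546% ± 0.0118 in clone 2.2, 0.588% ± 0.00889 in clone 3.2, 0.488% ± 0.014 in clone 3.5 and 0.494% ± 0.0112 in clone 3.6 (SD, n = 3). No clone library reached the WT level. The share of mitochondrial counts was 2.4% to 3.05% in WT. It was 3.24% to 3.68%, 3.21% to 3.35%, 2.8% to 4.02%, 3.89% to 4.37% and 2.38% to 3.28% in the clones, in the same order. Its part in these differences was not tested.

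**Figure D2:**
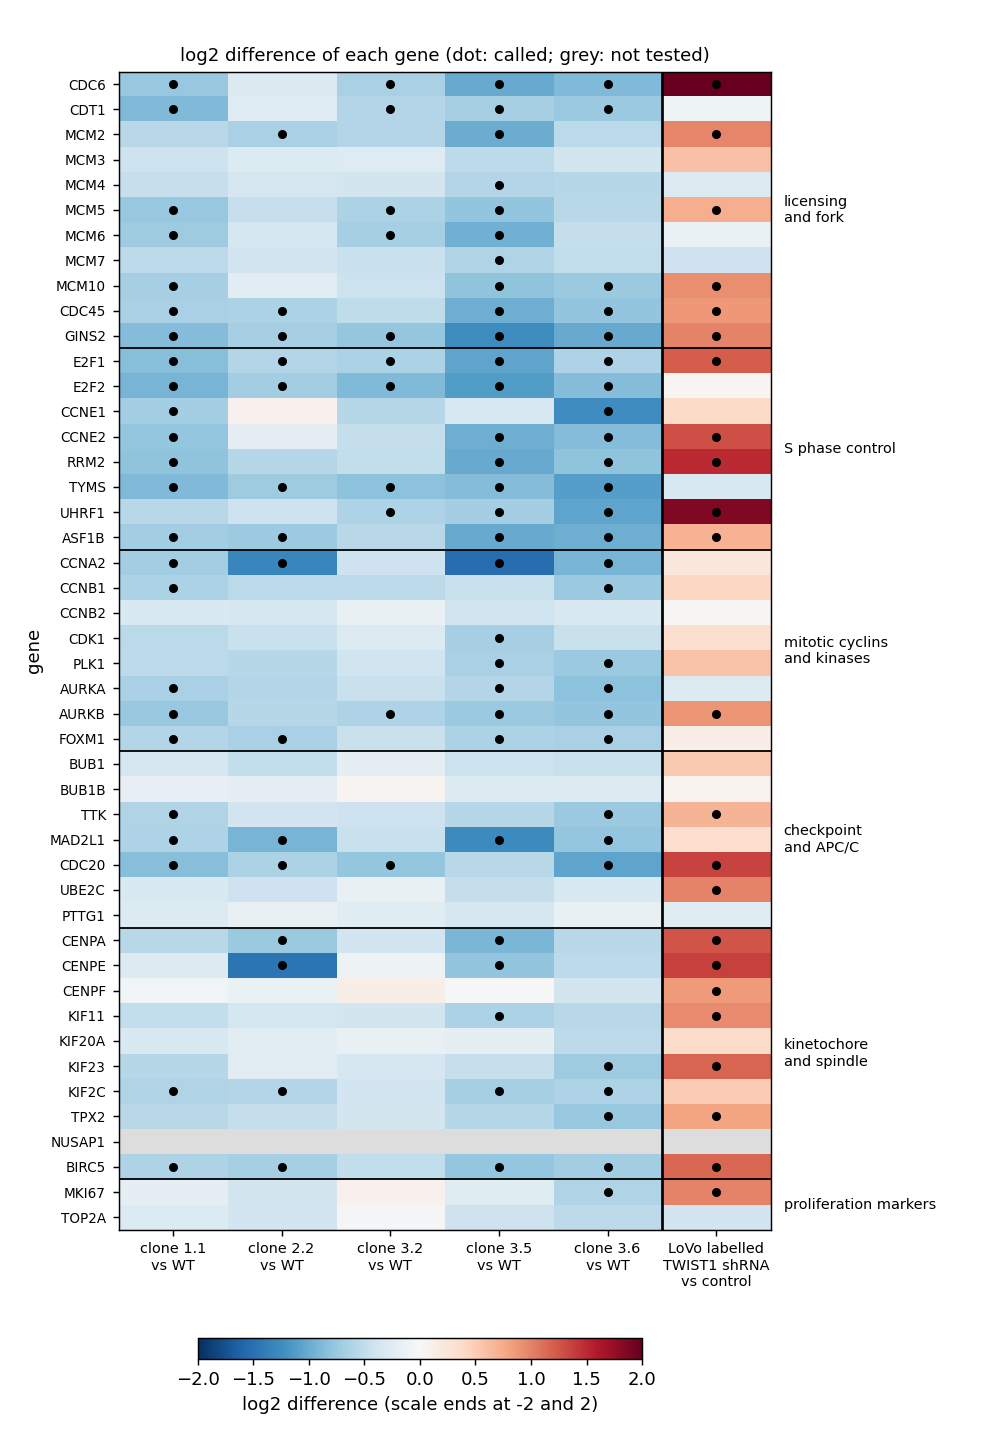
Log2 difference of each of the 46 genes (rows, grouped by role) in 6 comparisons (columns): the 5 knockout clones against the same MDST8 WT libraries, and LoVo libraries labelled TWIST1 shRNA against those labelled control. Blue is lower and red is higher, a dot marks a call and grey is not tested. The 5 clone columns are blue in nearly every row and hold 0 calls of higher, whereas the LoVo column holds 23 calls of higher and 0 of lower.

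GINS2, E2F1, E2F2 and TYMS, 4 of the 45 genes, were called lower in all 5 clones, against 1.06% of all genes tested that were lower in all 5 and 3.17% that were higher. GINS2, a subunit of the GINS complex that activates the helicase (chr16:85676198-85690073), had 39.1, 39.6 and 39 CPM in the WT libraries and between 16.1 and 25.8 CPM in the 15 clone libraries. The groups did not overlap, with log2 differences of -0.86, -0.67, -0.77, -1.26 and -1.01 in clones 1.1, 2.2, 3.2, 3.5 and 3.6 (SE 0.06 or 0.07, adjusted p 4.59e-11 or lower). E2F1, the transcription factor that opens the S phase programme (chr20:33675477-33686385), had 142, 153 and 132 CPM in WT and 65.8 to 104 CPM in the clones, again without overlap. Its log2 differences were -0.85, -0.59, -0.63, -1.05 and -0.62. The calls in clones 2.2, 3.2 and 3.6 stand close to the fold threshold. All 3 were lost when WT replicate B was left out (-0.52, -0.56 and -0.56), that in clone 2.2 also without clone 2.2 replicate A or B, and that in clone 3.6 without clone 3.6 replicate B.

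E2F2, a second activating E2F (chr1:23506438-23531233), had 17.1, 16.3 and 17.5 CPM in WT and 7.46 to 11.1 CPM in the clones, with log2 differences from -0.70 to -1.12 (SE 0.10). TYMS, the thymidylate synthase that makes dTMP for DNA synthesis (chr18:657653-673578), had 46.6, 48.9 and 52 CPM in WT and 21.1 to 31.1 CPM in the clones, with log2 differences from -0.71 to -1.10 (SE 0.07). For both genes every clone library lay below every WT library. About 47.9% of the TYMS exon bases overlap other genes, chiefly ENOSF1, and the counting did not use strand. All 4 of these genes hold an E2F word in the promoter window, as do 11 tested genes in all. Of those 11, 7 were called lower in 3 or more clones, and of the 25 without an E2F word 10 were. Among all genes tested 5.65% were lower in 3 or more clones. For CHR words the counts were 4 of 15 with and 13 of 21 without. They were 12 of 27 and 5 of 9 for CCAAT, and 2 of 4 and 15 of 32 for the E-box. The median of the mean clone difference was -0.66 with an E2F word and -0.57 without. A link between these words and the calls was not tested.

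Of the 19 replication and S phase genes, 14, 7, 9, 17 and 13 were called lower in clones 1.1, 2.2, 3.2, 3.5 and 3.6, and of the 26 tested mitosis and marker genes 10, 8, 2, 12 and 14. As shares these were 73.7% and 38.5% in clone 1.1, 36.8% and 30.8% in clone 2.2, 47.4% and 7.69% in clone 3.2, 89.5% and 46.2% in clone 3.5, and 68.4% and 53.8% in clone 3.6. Of all genes tested, 7.49%, 6.64%, 6.09%, 7.25% and 11.7% were called lower in the same clones. In clone 3.2 the share of mitosis genes called was thus near that over all genes. The median log2 difference of the replication genes was -0.71, -0.42, -0.58, -0.96 and -0.79 and that of the mitosis genes -0.55, -0.48, -0.37, -0.57 and -0.61. In clone 2.2 the order of the medians was turned. The difference between these groups of genes was not tested.

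**Figure D3:**
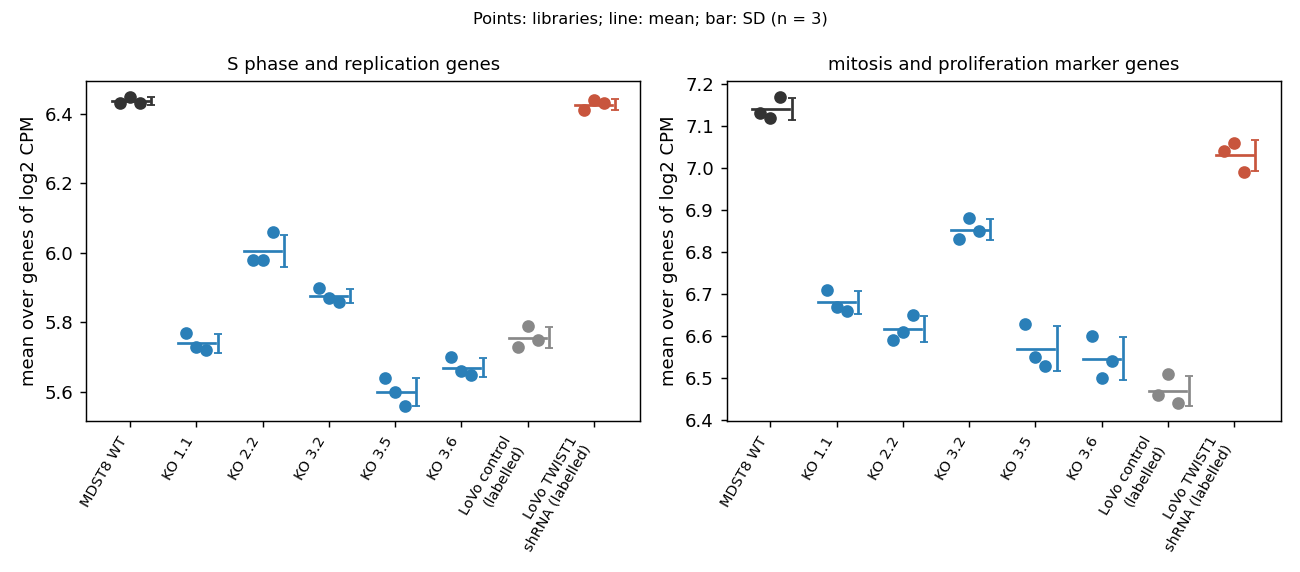
Mean log2 CPM over the 19 replication and S phase genes (left) and over the 26 tested mitosis and proliferation marker genes (right) in each of the 24 libraries, on one scale for both lines, with the mean and SD of each group (n = 3). Every clone library lies below every WT library in both panels, clone 3.2 stands highest of the clones for mitosis genes, and the LoVo libraries labelled TWIST1 shRNA lie above those labelled control.

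Within licensing and the fork, all 11 genes had means below WT in every clone. CDC6, the ATPase that loads the helicase, had 71.9, 76.5 and 71.8 CPM in WT, 42.7 to 43.9 in clone 1.1, 57.2 to 62.5 in clone 2.2, 46.2 to 47.6 in clone 3.2, 35.4 to 37.8 in clone 3.5 and 39.3 to 40 in clone 3.6. It was called in every clone but 2.2, where its log2 difference was -0.29. CDT1, its loading partner, was called in the same clones, with values from -0.26 in clone 2.2 to -0.89 in clone 1.1. Its call in clone 3.2 (-0.59) was lost without clone 3.2 replicate B or WT replicate B. CDC45, the helicase cofactor, was called in every clone but 3.2, where it stood at -0.51 with all 3 libraries below WT. MCM10, a fork scaffold, was called in clones 1.1, 3.5 and 3.6, with -0.23 and -0.43 in clones 2.2 and 3.2.

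The 6 subunits of the MCM helicase moved together but by unequal amounts. MCM7 (chr7:100092728-100101940), the most abundant of them per length in WT at 129.6 ± 1.6 CPM per kb, had log2 differences between -0.39 and -0.60 and was called in clone 3.5 alone. MCM4 was also called in clone 3.5 alone (-0.59), a call lost without clone 3.5 replicate C or WT replicate C. MCM3 had the smallest differences, between -0.26 and -0.53, and no call. MCM2, with 42.2, 48 and 45.6 CPM in WT and 22 to 23.9 in clone 3.5, fell by 0.99 there and by 0.65 in clone 2.2 on the log2 scale. About 23.6% of the MCM2 exon bases overlap another annotated gene. MCM6 and MCM5 were each called lower in clones 1.1, 3.2 and 3.5.

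**Figure D4:**
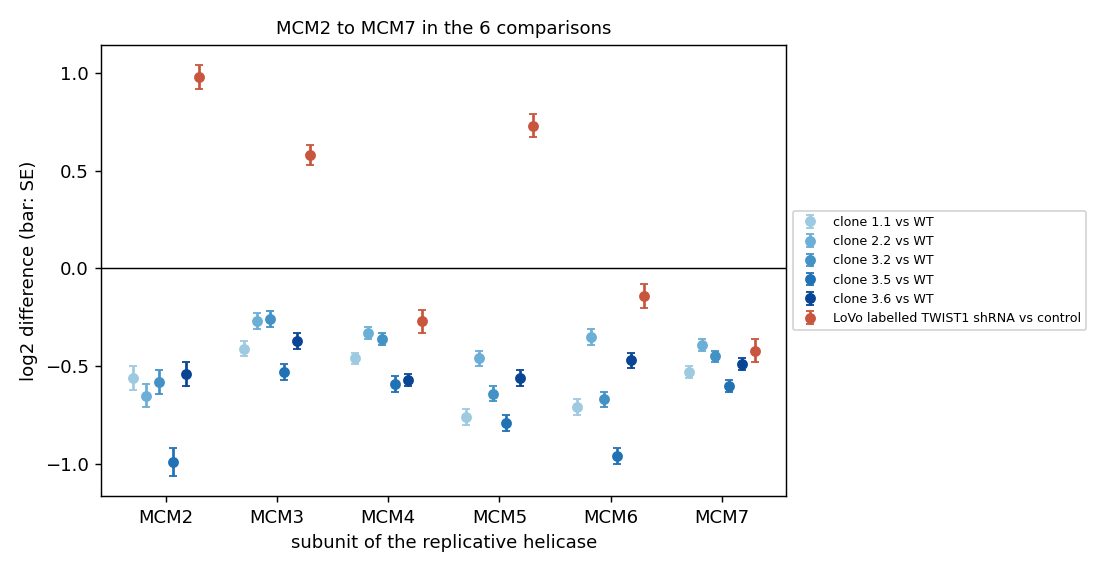
Log2 difference with its SE (y axis) of the 6 helicase subunits (x axis) in the 5 clones against WT, in blues, and in LoVo libraries labelled TWIST1 shRNA against control, in red. All clone points lie below 0, from -0.26 for MCM3 to -0.99 for MCM2, whereas the LoVo points are above 0 for MCM2, MCM3 and MCM5 and below 0 for MCM4, MCM6 and MCM7.

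Among the S phase control genes, RRM2, the small subunit of ribonucleotide reductase, was at 437, 424 and 434 CPM in WT and 206 to 225 CPM in clone 3.5. It was called lower in clones 1.1, 3.5 and 3.6, with differences of -0.50 and -0.57 in clones 3.2 and 2.2. UHRF1, which maintains DNA methylation behind the fork, fell most in clone 3.6, to 96 to 104 CPM from 198 to 211 CPM in WT. ASF1B, a histone chaperone, had 115, 106 and 105 CPM in WT and was called in every clone but 3.2, where its difference was -0.55. The study listed ASF1B and CDC20 as lower in both the knockout and the knockdown cells. That list came from these same samples, so that the directions of these genes are not independent evidence. In LoVo, as labelled, both were higher here, opposite to the direction the study gave.

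The E-type cyclins, partners of CDK2 at the start of S phase, differed between clones. CCNE1 (chr19:29811991-29824312) had 20.8, 17.2 and 15.4 CPM in WT, 18.6, 18.5 and 19.5 in clone 2.2, and 6.56, 7.58 and 8.45 in clone 3.6. Clone 2.2 lay within the WT range and clone 3.6 well below it, with log2 differences of 0.09 (SE 0.10) and -1.24 (SE 0.11). It was also called in clone 1.1 (-0.68), a call lost without WT replicate A. CCNE2 fell in clones 1.1, 3.5 and 3.6, by 0.78, 0.98 and 0.86 on the log2 scale, and had -0.18 in clone 2.2. About 37.1% of the CCNE2 exon bases overlap other genes, chiefly INTS8.

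Of the mitotic cyclins and kinases, CCNA2, the cyclin A of S phase and early mitosis (chr4:121816444-121823883), had the widest range. It stood at 111, 108 and 121 CPM in WT, 79.5 to 86.7 in clone 3.2, 68.2 to 71 in clone 1.1, 57.3 to 61.3 in clone 3.6, 45.1 to 46.2 in clone 2.2 and 37.4 to 41.6 in clone 3.5. These 6 ranges did not overlap, and the log2 difference ran from -0.42 to -1.52 (SE 0.05). CCNB1, the main mitotic cyclin, was called lower in clones 1.1 and 3.6 and had differences of -0.45 to -0.54 in the others. CDK1, the kinase that CCNB1 activates, was called in clone 3.5 alone (-0.67) and had -0.27 in clone 3.2.

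CCNB2, the second B-type cyclin, showed the smallest differences of this role, from -0.15 to -0.40, with no call. AURKB, the kinase of the chromosomal passenger complex, was called in every clone but 2.2, and FOXM1, the transcription factor of the mitotic wave, in every clone but 3.2. The FOXM1 call in clone 1.1 (-0.59) was lost without WT replicate A or B and without clone 1.1 replicate B or C. AURKA, the centrosomal Aurora kinase, was called in clones 1.1, 3.5 and 3.6, but the value in clone 3.5 (-0.58) lay at the threshold. That call was lost without WT replicate A, B or C in turn and without clone 3.5 replicate C. PLK1, which drives mitotic entry, was called lower in clones 3.5 and 3.6, with -0.40 to -0.57 in the others.

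In the checkpoint group, CDC20, the activator of the anaphase-promoting complex (chr1:43358981-43363203), had 174, 185 and 174 CPM in WT. The clones had 93.5 to 104, 110.0 to 118, 100.1 to 107, 116 to 125 and 80.9 to 89.6 CPM, in order of clone number. It was called in every clone but 3.5, with log2 differences from -0.56 to -1.05 (SE 0.04). MAD2L1, the checkpoint protein that holds CDC20 in check, was called in every clone but 3.2, where it stood at -0.45 with all 3 libraries below WT. It was lowest in clone 3.5, at 25 to 30.3 CPM against 65.5 to 71.7 CPM in WT. Its call in clone 1.1 (-0.61) was lost without WT replicate A. TTK, the checkpoint kinase, was called in clones 1.1 and 3.6, the former call (-0.60) lost without WT replicate C or clone 1.1 replicate A. BUB1, BUB1B, the ubiquitin-conjugating enzyme UBE2C and the securin PTTG1 were called in none, and their differences lay between 0.05 and -0.49.

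Of the 9 tested kinetochore and spindle genes, 2, 4, 0, 5 and 4 were called lower in clones 1.1, 2.2, 3.2, 3.5 and 3.6. CENPE, the kinetochore motor (chr4:103105349-103198445), was at 68, 66.3 and 71.6 CPM in WT, 25, 25.8 and 23.9 in clone 2.2 and 61.2, 67.2 and 63.7 in clone 3.2. Clone 3.2 overlapped WT and clone 2.2 was far below it, at -1.46 (SE 0.06). CENPF, an outer kinetochore protein, had the smallest differences, between 0.11 and -0.37. CENPA, the centromeric histone, was called lower in clones 2.2 and 3.5, with -0.38 to -0.56 in the others.

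BIRC5, a subunit of the passenger complex also called survivin, and KIF2C, a microtubule depolymerase, were called in every clone but 3.2. KIF2C stood near the threshold, between -0.59 and -0.67, and without WT replicate C it was called in clone 3.5 alone. Its calls were also lost in clone 1.1 without clone 1.1 replicate C and in clone 2.2 without clone 2.2 replicate B. The bipolar spindle motor KIF11 was called in clone 3.5 alone (-0.64), whereas KIF23, a cytokinesis motor, and TPX2, which activates AURKA on the spindle, were called in clone 3.6 alone (-0.71 and -0.76). KIF20A, another cytokinesis motor, was called in none. All of their differences from WT were negative in every clone.

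Of the 2 proliferation markers, 1 was called lower, in clone 3.6 alone, where 11.7% of all genes tested were called lower. MKI67, which encodes Ki-67 (chr10:128096659-128126423), had 413, 408 and 460.0 CPM in WT, 459, 446 and 456 in clone 3.2 and 265, 285 and 294 in clone 3.6. Clone 3.2 lay inside the WT range, with a log2 difference of 0.09 (SE 0.05), and clone 3.6 was the one clone called, at -0.60, a call lost without clone 3.6 replicate A or WT replicate C. TOP2A, the topoisomerase that untangles mitotic chromosomes, had differences between -0.03 in clone 3.2 and -0.52 in clone 3.6 and no call. Their promoters, shown above, hold CCAAT and CHR words and no E2F word.

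**Figure D5:**
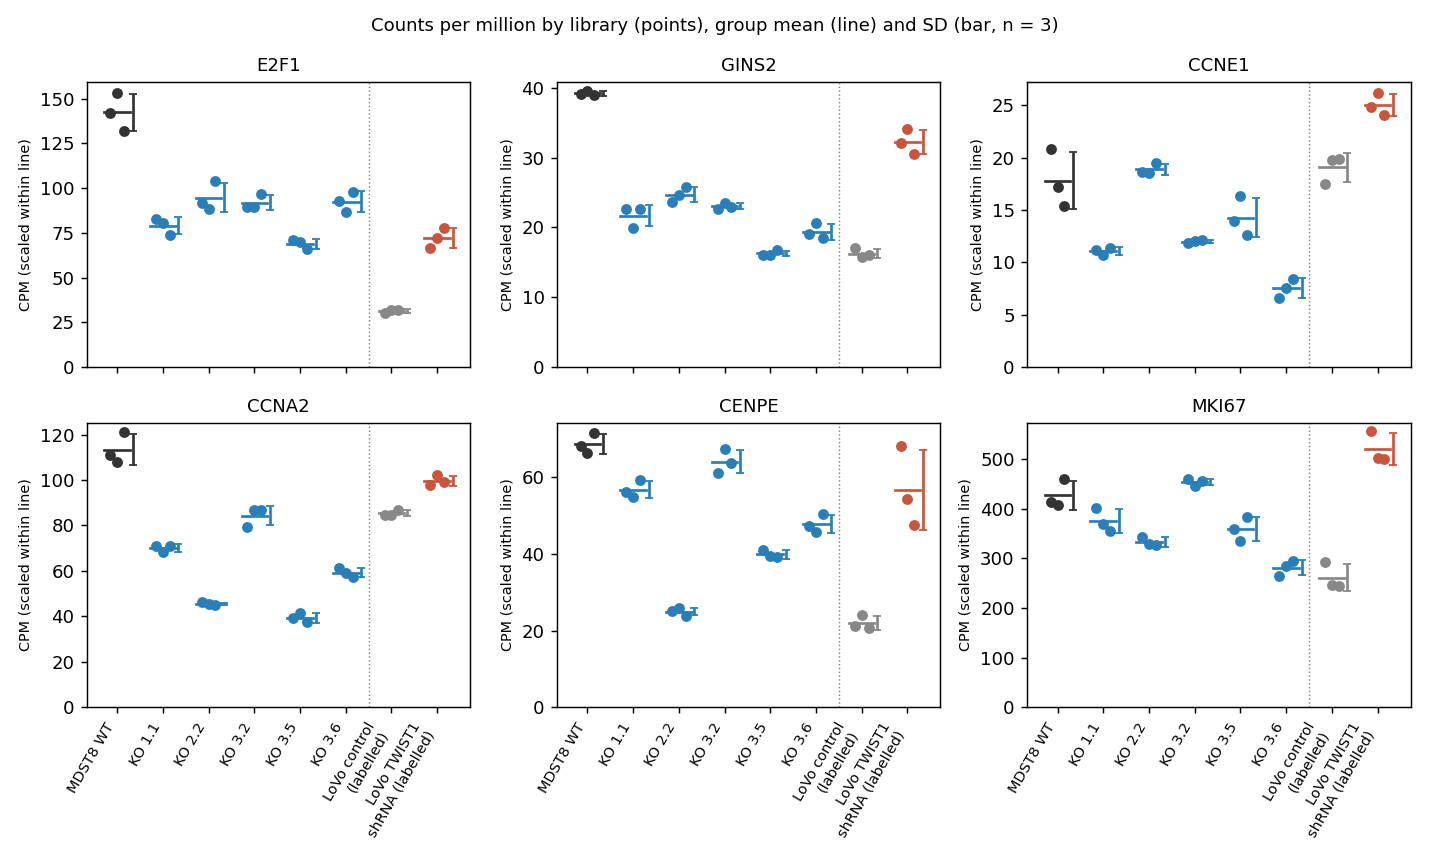
CPM of 6 genes (y axis, scaled within each line) in every library of the 8 groups (x axis), with the group mean and SD (n = 3). E2F1 and GINS2 were lower in all 5 clones, CCNE1 and CENPE ranged from the WT level to far below it, CCNA2 was lowest in clones 3.5 and 2.2, and MKI67 in clone 3.2 lay inside the WT range.

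The clones were then compared among themselves. In an F test over the 5 clones, with a largest difference between clones beyond 0.58, 11 of 45 genes were called, against 32% of all genes tested. These were CDC6, CDT1, MCM6, GINS2, CCNE1, CCNE2, UHRF1, CCNA2, MAD2L1, CENPE and MKI67. Among the 3 clones of the third guide, 5 were called (CCNE1, CCNA2, MAD2L1, CENPE and MKI67), against 20.3% of all genes tested.

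Other genes of the same pathways were counted in the same fits, from lists chosen with earlier results of these data known. The lists include CENPM and DBF4B, which the study listed from these same samples. Of 28 further replication genes, 16, 7, 6, 19 and 17 were called lower in clones 1.1, 2.2, 3.2, 3.5 and 3.6 and 0 higher. The shares lower were 57.1%, 25%, 21.4%, 67.9% and 60.7%, against 7.49%, 6.64%, 6.09%, 7.25% and 11.7% of all genes tested. The origin recognition subunit ORC1 had -0.96, -0.43, -0.94, -1.05 and -1.15. Of 54 further mitosis genes, 22, 22, 8, 33 and 25 were called lower and 0 higher. These were 40.7%, 40.7%, 14.8%, 61.1% and 46.3%, against the same shares of all genes. MYBL2, which encodes B-MYB, had -1.17, -1.16, -0.89, -1.86 and -1.27.

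In LoVo the direction was the opposite one, as labelled. Libraries labelled TWIST1 shRNA had 23 of 45 genes called higher and 0 lower than those labelled control, against 26.6% of the 14270 genes tested called higher and 26.1% called lower. All 3 libraries lay above all 3 of the control for 34 genes and below for 7, against 40% and 39.9% of all genes tested. The median log2 difference of the set was 0.68, and that over all genes 0.01. The set took 0.429% ± 0.00503 of counts in the control libraries and 0.652% ± 0.0123 in the other group (SD, n = 3). The share of mitochondrial counts was also higher there, at 5.47% to 10.9% against 3.49% to 3.96%, and its part in these differences was not tested. The library at 10.9%, replicate 1, stood apart from its replicates, with a chi-square per gene of 20.6 and 31.5 against them, where the other pair had 4.44 and the control pairs 3.02 to 4.07. Without it, 25 genes were called higher.

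Cell identity markers moved in the same LoVo libraries. Of the 10 colon epithelium markers, 8 were called lower and 0 higher, with a median log2 difference of -1.86, and their summed level was 4673 to 5264 CPM against 8129 to 8389 CPM in the control. All 4 tested of the 6 mesenchymal markers were lower, with summed levels of 44.5 to 50 CPM against 215 to 219 CPM and CDH2 at 0. Of the 6 fibroblast markers 2 were tested, 1 called higher (4.39) and 1 called lower (-1.25). The 6 summed to 54.8 to 81.7 CPM against 4.44 to 6.17 CPM, with DCN and LUM at 0. COL1A1 was the 1 fibroblast marker above 1 CPM in the libraries labelled TWIST1 shRNA. The part of these shifts in the differences of the cell cycle genes was not tested.

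CDC6 differed most, at 40.6, 42.1 and 41 CPM in the control libraries and 179.9, 178 and 172 CPM in those labelled TWIST1 shRNA, a 4.28-fold difference (edgeR, SE 0.06 on the log2 scale, adjusted p = 9.08e-15). UHRF1 rose by 1.85 and RRM2 by 1.49. RRM2 stood at 133, 131 and 132 CPM against 366, 384 and 365. E2F1 rose from 30, 31.7 and 31.8 CPM to 66.6, 72.1 and 77.8 CPM, whereas E2F2 (0.04, SE 0.07) and CDT1 (-0.08, SE 0.08) overlapped between the groups.

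The MCM subunits split in LoVo. MCM2 and MCM5 were called higher (0.98 and 0.73) and MCM3 stood at 0.58 without a call, whereas MCM4, MCM6 and MCM7 were at -0.27, -0.14 and -0.42, also uncalled. MCM7 had 386, 380.2 and 404 CPM in the control and 281, 293 and 298 CPM in the other group, without overlap. TYMS, one of the 4 genes lower in all 5 clones, was likewise below the control in LoVo, at -0.31 and not called. ASF1B rose by 0.69 and CCNE2 by 1.29, CCNE2 from 2.78 to 3.75 CPM (46 to 76 counts) up to 7.36 to 9.49 CPM.

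Mitotic cyclins and kinases had 1 call in LoVo (12.5%, against 26.6% of all genes called higher), AURKB at 0.89. CCNA2 (0.22), CCNB1 (0.41), CDK1 (0.34) and CCNB2 (0.03) were not called, and AURKA was at -0.28. In the checkpoint group CDC20, UBE2C and TTK rose, by 1.35, 0.99 and 0.68. CDC20 had 115, 119 and 119 CPM in the control and 277, 306 and 319 CPM in the other group. PTTG1 was at -0.25 and BUB1B at 0.07.

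Of the 9 tested kinetochore and spindle genes, 7 were called higher in LoVo (77.8%, against 26.6% of all genes). CENPE rose by 1.37, from 21.1, 24.1 and 20.6 CPM to 68.1, 54.4 and 47.5 CPM, and CENPA, KIF23 and BIRC5 rose by 1.25, 1.17 and 1.15. KIF20A had the smallest difference (0.36). MKI67 rose by 0.99, from 292, 247 and 245 CPM to 557, 502 and 499.5 CPM, whereas TOP2A stood at -0.38 and was below the control in all 3 libraries, though not called.

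Of the further replication genes, 12 of 28 (42.9%) were called higher and 1 (3.57%) lower in LoVo. Of the further mitosis genes 33 of 54 (61.1%) were called higher and 0 lower. Among all genes tested in LoVo 26.6% were called higher and 26.1% lower. ORC1 was the replication gene called lower, at -0.78, and TK1, the thymidine kinase, rose by 2.21. KIF18A, a kinesin of chromosome alignment, rose by 2.21 among the mitosis genes.

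The difference between the contrasts was tested in one fit of all 24 libraries, as the LoVo difference minus the mean difference of the 5 clones. It was positive and called for 35 of 45 genes and negative for 0, against 26.7% and 25.2% of the 12132 genes tested in both lines. The median of the set was 1.18. It was largest for CDC6 (2.80, SE 0.06), UHRF1 (2.50, SE 0.05) and RRM2 (2.21, SE 0.05), and nearest to 0 for PTTG1 (-0.04, SE 0.07), MCM7 (0.05, SE 0.05) and TOP2A (-0.07, SE 0.06). This test also spans cell line and knockout against knockdown, which cannot be told apart.

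MDST8 WT had higher levels than LoVo labelled control in 25 of the 45 genes and lower levels in 4, against 30.7% and 28.9% of genes tested. The median log2 difference was 0.67. This comparison follows the LoVo labels, which the TWIST1 counts ran against. The mean log2 CPM of the set was 6.85 in MDST8 WT, 6.17 in LoVo labelled control and 6.78 in LoVo labelled TWIST1 shRNA. Cell line and preparation cannot be told apart here. KIF11 (2.64), CCNE2 (2.50), UHRF1 (2.34) and E2F1 (2.13) were most in excess in MDST8, and UBE2C (1.51), MCM5 (1.52) and FOXM1 (1.35) led their roles on that side. CDT1 (-1.69), E2F2 (-1.25), MCM2 (-0.76) and CCNB2 (-0.64) were the 4 called lower in MDST8. MCM3 (-0.07), TYMS (0.08), BUB1B (0.06) and TOP2A (-0.00) differed least in their roles. The E2F genes were thus split between the lines, with E2F1 at 139.9, 151 and 131 CPM in MDST8 WT and 30.7 to 32.8 in LoVo control on the scale set over both lines. E2F2 stood at 16 to 17.3 and 39.4 to 40.7 CPM. Per exon length, UBE2C was the most abundant of the set in MDST8 WT, at 153 ± 5.38 CPM per kb, and E2F2 the least abundant tested, at 3.06 ± 0.12.

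TWIST1 ChIP peaks were counted within 3000 bp on either side of the 5' end of each gene (hg38), with 1 library per line and so no replicate check. TWIST1 RNA in LoVo was 0 reads in each library labelled control and 73 to 93 reads in the others. The study also ran Western blots for TWIST1 on LoVo cells and on the ChIP pull-down of both lines. Whether the LoVo peaks mark TWIST1 itself was not tested here. A listed peak was present at 38 of 46 genes in MDST8 (82.6%), against 77.5% of the genes tested in both lines and 70.8% of protein-coding genes. In LoVo it was 30 (65.2%), against 58.1% and 57.2%. The excess over the genes tested did not hold in MDST8 within 1000 bp (54.3% against 54.7%), nor for peaks with p at most 0.001 (28.3% against 29.1% in MDST8 and 13% against 19.1% in LoVo). Within 5000 bp the shares lay below those of the genes tested, at 84.8% against 87.1% in MDST8 and 69.6% against 71.3% in LoVo. Peaks in both lines were listed at 25 of the 46 genes, against 45.1% of the genes tested in both lines, and in neither at 3 (CDC6, CCNE1 and NUSAP1). Most of these peaks were weak, as the lists hold nominal p-values up to about 0.05, and 2 passed a q-value of 0.05. These were 1 of the 46 genes in each line (2.17%), against 0.618% of genes tested in MDST8 and 0.346% in LoVo.

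The stronger of these was at MCM6 in MDST8, at chr2:135876237-135876711, with its summit 103 bp upstream of the 5' end, a 4.27-fold enrichment as the peak caller gave it and q = 0.0284. It covers the promoter stretch shown above, which holds paired E2F words and 1 copy of the E-box. The other was at FOXM1 in LoVo, at chr12:2875852-2876504, with its summit 1089 bp downstream of the 5' end, 3.73-fold enrichment and q = 0.0499. For the 38 genes with an MDST8 peak the median of the mean clone difference was -0.58, and for the 7 tested genes without one it was -0.65.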

How the data were processed

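RNA counts are the authors' raw deposited counts per gene: reads trimmed with Trim Galore 0.6.6, aligned to hg38 with HISAT2 2.1.0, sorted with SAMtools 1.6 and counted with featureCounts 2.0.0 on GENCODE exons, per the file headers and the submitters' notes. The counting did not use strand, and a read on overlapping genes was not counted. Peaks were called by the authors with MACS2 2.2.7.1 on Bowtie2 2.4.5 alignments of 1 ChIP library per line, and whether the input served as control is not given in the sources used here. The deposited peak lists give a score, a fold enrichment, −log10 p-values and q-values, and a summit position. The deposited gene length is used for values per kb.

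The 46 genes and the further gene lists were chosen with earlier results of these data known. Genes were kept at a geometric mean of at least 1 read per 1e6 reads (offset 1) over a line's libraries, which left 13706 in MDST8, 14270 in LoVo and 12132 in both. CPM use TMM factors, set within each line, or over all 24 libraries where lines are compared. Tests are edgeR 4.0.16 quasi-likelihood tests with group as the only term, over all 18 MDST8 libraries, the 6 LoVo libraries or all 24, adjusted by Benjamini-Hochberg over all genes kept. The thresholds and the filter follow the study's methods, which used limma on log2 counts. The deposited unit being counts, edgeR is the main test here, and limma 3.58.1, DESeq2 1.42.0, RLE factors, no filter, other sample sets and leaving out each library were tried as alternatives. Named genes were those with the largest and smallest difference in each role and comparison, those called in all 5 clones or in 1, and a fixed list of cell cycle genes. Scripts were tested on simulated data. Nothing states that the 3 libraries of a group came from separate cultures, so p-values measure the spread between these libraries, which may be technical. All value columns of the count tables were matched to a sample. Promoters and gene biotypes came from RefSeq GRCh38.p14 and GENCODE tables. Sequence motifs were matched exactly.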

Additional observations from a re-analysis of the deposited data

Results flagged for a closer look

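Results that differed between groups by a test of the difference itself are given here as values. The LoVo difference, as labelled, exceeded the mean clone difference in 35 of the 45 genes tested. The 5 genes with the largest such excess were CDC6 (2.80 on the log2 scale, edgeR adjusted p = 3.02e-29), UHRF1 (2.50, adjusted p = 2.99e-28), RRM2 (2.21, adjusted p = 2.14e-27), CDC20 (2.11, adjusted p = 7.3e-25) and CENPE (1.98, adjusted p = 8.95e-18). Since the TWIST1 counts of the LoVo libraries ran against their labels, the sign of the LoVo difference follows the labels and not the TWIST1 level.

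Among the 5 knockout clones, 11 genes differed from clone to clone, against 32% of all genes tested, and among the 3 clones made with the third guide 5 did, against 20.3%. For these 5 the largest log2 difference between any pair of those clones was 1.1 for CCNA2 (adjusted p = 2.29e-18), 0.92 for CCNE1 (adjusted p = 3.02e-08), 0.83 for MAD2L1 (adjusted p = 7.02e-13), 0.69 for CENPE (adjusted p = 8.83e-13) and 0.69 for MKI67 (adjusted p = 6.24e-14). Clone 3.2 had the highest level of CCNA2, MAD2L1, CENPE and MKI67 among the 3, and clone 3.5 that of CCNE1. The cause was not tested.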

How the results depend on the processing

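The direction of every called difference held under all alternatives run: RLE factors, DESeq2, limma on unscaled log2 counts, no filter, only the 2 groups compared, the replicate block and leaving out each library. Counts of called genes stayed within 1.5 times the main count except in unscaled limma, where clone 3.2 had 5 genes lower in place of 11, the F test over 5 clones 17 in place of 11, and that over the clones of the third guide 14 in place of 5. Its calls over all genes were 611 lower and 1763 higher in clone 3.2, in place of 835 and 1491, and 1098 and 2687 in clone 3.6, in place of 1605 and 2099. That setting shifted the median of all genes by 0.13 in clone 3.6 and, for MDST8 WT against LoVo control, from 0.04 to 0.20, with 30 genes higher and 3 lower in place of 25 and 4. In clone 3.2 it lost the calls of CDC6, CDT1, MCM5, E2F1, UHRF1 and AURKB. In clone 3.6 it lost those of E2F1, FOXM1, KIF2C, BIRC5 and MKI67. It also lost FOXM1 and KIF2C in clone 1.1 and E2F1 and KIF2C in clone 2.2, and gained 4 calls in clone 3.5. The AURKA call in clone 3.5 was lost with RLE factors and with DESeq2, and the CDT1 call in clone 3.2 with only the 2 groups compared. With 1 library left out, the counts ran from 22 to 24 in clone 1.1, 13 to 19 in clone 2.2, 9 to 13 in clone 3.2, 27 to 32 in clone 3.5, 25 to 31 in clone 3.6, 23 to 25 in LoVo, 25 to 25 between lines, 34 to 37 for the LoVo difference minus the clone difference, 3 to 5 for genes lower in all 5 clones, 10 to 13 for the F test over 5 clones and 5 to 6 for that over 3. In these fits 31 single calls were lost and 30 gained, and 11 signs changed, none of a called value. Replicate letters did not pair the MDST8 libraries: over 45 same-letter pairs the correlation of deviations ran from -0.13 to 0.11, and 3 of 18 libraries fitted best with their own letter. The replicate block left the counts at 24, 15, 11, 29 and 27 genes lower and 4 in all 5 clones, with 11 and 5 in the F tests. No paired analysis was possible in LoVo because its groups share no replicate numbers. For peaks, a 1000 bp window left 25 genes in MDST8 (54.3%, against 54.7% of genes tested) and 18 in LoVo (39.1% against 33%). A 5000 bp window gave 39 (84.8% against 87.1%) and 32 (69.6% against 71.3%). A limit of p at most 0.001 left 13 (28.3% against 29.1%) and 6 (13% against 19.1%). With q at most 0.05, 1 (2.17% against 0.618%) and 1 (2.17% against 0.346%) were left.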

Other observations

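Genes that restrain the cell cycle or act in G1, a list of 32, had calls in both directions. In clones 1.1, 2.2, 3.2, 3.5 and 3.6, 5, 4, 3, 8 and 4 were called lower and 5, 1, 4, 3 and 5 higher, against 7.49%, 6.64%, 6.09%, 7.25% and 11.7% of all genes tested called lower and 12%, 8.05%, 10.9%, 11.2% and 15.3% called higher. In LoVo 10 were lower (31.2%, against 26.1% of all genes) and 8 higher (25%, against 26.6%), as labelled, which is near the shares over all genes. CDKN1C, the p57 inhibitor of cyclin-dependent kinases, had log2 differences of 1.28, 0.22, 1.05, 1.03 and 2.03 in the clones, called in every clone but 2.2. BTG2, an antiproliferative gene, rose in clones 1.1, 2.2, 3.2 and 3.5, by 0.64, 1.48, 0.66 and 1.56, and had 0.15 in clone 3.6. CDKN1A, the p21 inhibitor, was called in none, with differences from -0.03 to 0.40.

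CCND2, a D-type cyclin, differed more between clones of one guide than any other gene of that list, at -2.35 in clone 3.2, 2.67 in clone 3.5 and 1.30 in clone 3.6. E2F8, a repressor E2F that is itself an E2F target, had -0.90, -0.48, -0.59, -1.34 and -0.74 in the clones and 1.32 in LoVo. LIN54, the DNA-binding subunit of the DREAM and MuvB complexes, had -0.59, -0.95, -0.41, -1.04 and -0.67, and -2.21 in LoVo, negative throughout, with no call in clone 3.2.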
